A study of Mus musculus with 23 samples.

Results

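Mature microRNAs of alveolar type 2 (AT2) cells and endothelial cells (EC) of the mouse lung were compared at postnatal days 14 and 28 (P14 and P28). The comparison took every sample of those ages, 5 AT2 samples and 4 EC samples of the 23 samples in the series, and all 602 microRNAs of the panel. The whole series followed both cell types through 6 stages, E16.5, E18.5, P1, P7, P14 and P28, with 13 AT2 and 10 EC samples. All samples came from C57BL6 mice labelled WT, with no transgene or treatment named. There were 2 AT2 P14, 3 AT2 P28, 2 EC P14 and 2 EC P28 samples. AT2 samples carry CD326 in their sample descriptions, the epithelial surface protein EpCAM, and EC samples carry CD31, the endothelial adhesion protein PECAM1. CD326 is found on other lung epithelial cells too, and CD31 on platelets and some leukocytes. The labels do not state that samples came from separate animals, so every p-value below measures the scatter among these samples only, and that scatter may be technical.

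AT2 cells make and recycle pulmonary surfactant and can give rise to the flat type 1 cells across which gas is exchanged. Endothelial cells line the capillaries on the other side of that barrier. In the weeks after birth the mouse lung forms most of its alveoli and matures its capillary bed. A microRNA is a short RNA that guides Argonaute proteins to messenger RNAs with matching sites, mainly through its seed near the 5′ end, and lowers their translation or stability. Sorted cell types often differ in a few very abundant microRNAs.

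The deposited table names each microRNA by its MIMAT identifier, the miRBase accession of a mature sequence. The reference tables used here paired 0 of the 602 identifiers with a name, so families, sequences and cell type markers could not be assigned. The labelled cell types were for the same reason not checked against epithelial or endothelial marker microRNAs. Individual microRNAs are given by identifier, at most 2 in each direction of a comparison, with the most abundant ones beside them. What each of them does is not stated, because the files do not pair identifiers with names.

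The values are signals, nCounter counts multiplied by 1 factor per sample. Recovered microRNA counts ranged from 26640 to 496523 in AT2 samples and from 113697 to 305794 in EC samples. The background limit, the mean plus 2 SD of 8 low control probes, lay between 7.43 and 20.5 scaled signal units in AT2 samples and between 26.2 and 69.7 in EC samples. The microRNAs above background in no sample of the series, which carry background alone, had a median log2 difference of -1.13 (AT2 minus EC), so a value near background reads as higher in EC samples. AT2 P28 replicate 1 stood apart in depth, with the 26640 counts and with all 8 low control probes at 1 count, so any higher count passed its limit.

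EC P14 replicate 2 stood apart in its microRNAs. In the fit without that sample, 15 microRNAs were past the threshold and at least 4-fold higher in AT2 cells, and 14 of the 15 were higher in EC P14 replicate 2 than the mean of the other 3 EC samples. Their median was 3.51 times that of the other EC samples, 66.2% of the way to the AT2 mean on the log2 scale. The opposite list, 37 EC-high microRNAs past the same limits, was at a median of 0.347 times the other EC samples. Above the mean of those samples lay 0 of the 37. Across the microRNAs tested, this sample correlated with AT2 P14 replicate 2 at r = 0.932 and with its closest EC sample, EC P28 replicate 2, at r = 0.924. Each of the other 8 samples correlated most highly with a sample of its own cell type.

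EC P28 replicate 2 was raised in AT2-high microRNAs to a smaller extent. In the fit without it, 9 of 10 AT2-high microRNAs lay above the mean of the other EC samples, at a median of 2.08 times that mean. Of the 35 EC-high microRNAs, 12 lay above the mean of the other EC samples. The median of the 35 was 0.823 times that mean, within the range of the AT2 samples given below for the same kind of list. By the same measure EC P14 replicate 1 was low in AT2-high microRNAs, at 0.397 times the other EC samples over a list of 4. EC P28 replicate 1 was at 0.481 times over a list of 7. Those other EC samples included both raised ones. At each age 1 EC sample was thus low and 1 raised in AT2-type microRNAs relative to the rest. The low samples have title IDs that start with LMM.15 and background limits of 69.7 and 65.1 signal units. The raised samples have LMM.16 and limits of 32.2 and 26.2. In the EC samples these traits cannot be told apart. In AT2 samples the EC-high microRNAs were at a median of between 0.685 times (AT2 P14 replicate 1) and 1.45 times (AT2 P14 replicate 2) the other AT2 samples. Whether other cells or RNA from them entered a sort was not tested.

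**Figure D1:**
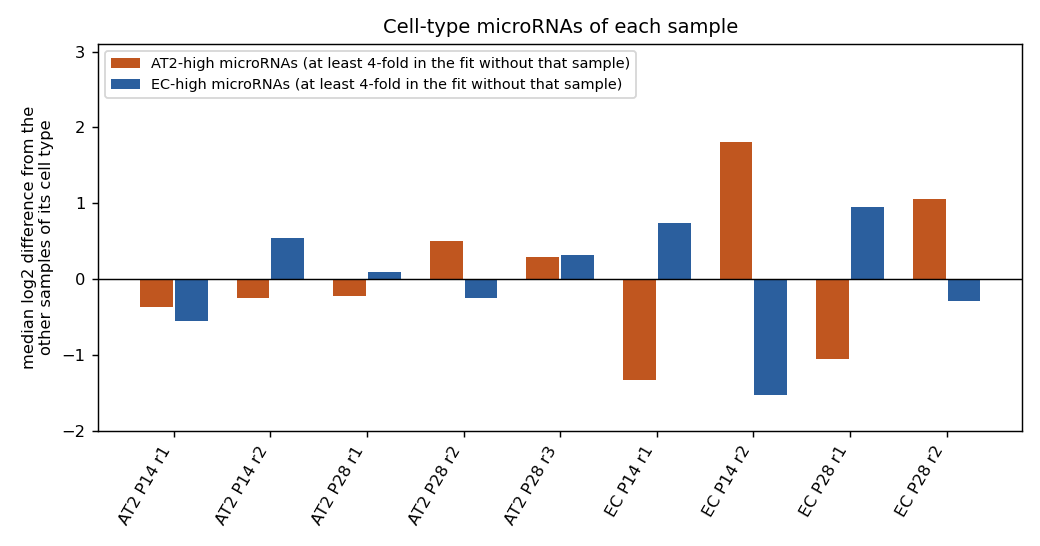
Median log2 difference of each sample from the other samples of its cell type, for microRNAs at least 4-fold higher in AT2 (orange) or EC (blue) in a fit that left that sample out. EC P14 replicate 2 stands 3.51 times above the other EC samples for AT2-high microRNAs and at 0.347 times for EC-high ones; the lists hold between 4 and 37 microRNAs.

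Of the most abundant microRNAs, MIMAT0000138 differed between the cell types, and MIMAT0000121 and MIMAT0003484 did not pass the threshold. In EC samples MIMAT0000138 was the most abundant microRNA of all 4 samples, with 44.9% of the microRNA counts in EC P14 replicate 1, 23.4% in EC P14 replicate 2, 44.9% in EC P28 replicate 1 and 37.1% in EC P28 replicate 2. The lowest of these shares was that of the sample with raised AT2-type microRNAs. In AT2 samples the leading microRNA was MIMAT0000121 in 3 samples and MIMAT0003484 in the other 2. Where counts are shares of a pool, a very abundant microRNA lowers the share of the rest.

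MIMAT0000121 was high in both cell types, at 6.94% ± 2.15 of counts in AT2 samples (SD, n = 5) and 4.92% ± 1.25 in EC samples (SD, n = 4). Its signal ranged from 9799 to 20020 with a median of 15196 in AT2 samples, and from 13933 to 18848 with a median of 15653 in EC samples. The cell types overlapped, and the log2 difference was -0.12 ± 0.24 (SE; limma adjusted p = 0.677). That value turned to 0.33 with a median shift of the samples and to 1.18 under quantile normalization, where it passed the threshold (limma adjusted p = 0.00406).

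MIMAT0003484 was uneven within the AT2 samples. Its signal was 12504 in AT2 P14 replicate 1, 5651 in AT2 P14 replicate 2, 10683 in AT2 P28 replicate 1, 14190 in AT2 P28 replicate 2 and 307999 in AT2 P28 replicate 3. In that last sample it held 62.8% of the microRNA counts, against 3.83% to 7.76% in the other 4. The EC samples lay between 5125 and 9078, and the difference did not pass the threshold (log2 difference 1.31 ± 0.78, SE; limma adjusted p = 0.167). It did pass under quantile normalization (limma adjusted p = 0.0463) and by edgeR (adjusted p = 0.026). Without AT2 P28 replicate 3 the log2 difference was 0.54 (limma adjusted p = 0.396).

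The concentration of the pool in its leading microRNAs was not separable by the exact test over all 9 samples. The 10 most abundant microRNAs held 54.7% ± 14.8 of counts in AT2 samples (SD, n = 5) and 65.5% ± 6.24 in EC samples (SD, n = 4). The exact permutation test, two-sided, gave p = 0.238, the same after adjustment over 4 tests. Without AT2 P28 replicate 3 the difference was 17.2 percentage points in the same direction, with an exact permutation p of 0.0286, the smallest for 4 against 4. With MIMAT0003484 left out of every total, the share of the 10 most abundant was 50.3% in AT2 P28 replicate 3, between the 45.0% and 52.4% of the other AT2 samples, and 57.6% to 71.3% in the EC samples.

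More microRNAs passed the sample's own background limit in AT2 samples, 218 ± 19.9 (SD, n = 5), than in EC samples, 158 ± 21.2 (SD, n = 4). The exact permutation test, two-sided, gave p = 0.0159, the smallest it can give for 5 against 4 (adjusted over 4 tests, 0.0317). Against a common floor, the highest limit of the 9 samples at 69.7 signal units, the order was the opposite. There 116 ± 2.17 microRNAs passed in AT2 samples and 129 ± 8.91 in EC samples (exact permutation p = 0.0159, two-sided, adjusted 0.0317). The number of microRNAs detected in each cell type thus depended on the limit used.

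Of 302 microRNAs tested, 142 differed between AT2 and EC cells over both ages together (47%). The AT2-high side held 42 of them (13.9%) and the EC-high side 100 (33.1%). The test was limma with 1 mean per cell type and stage over all 23 samples, on log2(signal + 1), with Benjamini-Hochberg adjusted p under 0.05. The added 1 shrinks folds of low microRNAs. MicroRNAs that carry background alone read as higher in EC samples (median log2 difference -1.13), so an EC-high fold near background is no lower bound. In RNA of bulk samples, fewer cells of a type and less RNA per cell cannot be told apart.

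On the values as deposited, the EC side held more of the large differences. Background alone had a median log2 difference of -1.13, past 2-fold toward EC, and the counts that follow are not split by background. Differences of at least 2-fold were found for 32 AT2-high and 86 EC-high microRNAs, of at least 4-fold for 7 and 29, of at least 8-fold for 2 and 13, and of at least 16-fold for 1 and 5. The median log2 difference was 1.44 for the 42 and -1.53 for the 100, against -0.54 over all 302. For 66 microRNAs (21.9% of those tested) the samples of the cell types did not overlap, 14 with all AT2 samples above all EC samples and 52 the other way, and 64 of the 66 were among the 142.

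The split between the directions moved with the scaling. A median shift of the samples brought the median log2 difference to -0.08 and gave 73 microRNAs higher in AT2 and 61 higher in EC. Quantile normalization gave 70 and 58, edgeR's quasi-likelihood test on the recovered counts 60 and 81, subtraction of the mean background 75 and 46, and raising all values to the common floor 29 and 33. Under all 6 scalings and background treatments, 29 microRNAs were past the threshold as higher in AT2 cells and 27 as higher in EC cells. None of the 142 turned direction under the median shift, quantile normalization, edgeR or the common floor, and 20 turned with background subtracted, 0 of them past the threshold. The median shift moves every difference by the same amount toward AT2, so it can turn only small EC-high ones. At the common floor a microRNA with all values at the floor has no direction to turn. For the median shift and the common floor the outcome was thus largely fixed in advance.

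**Figure D2:**
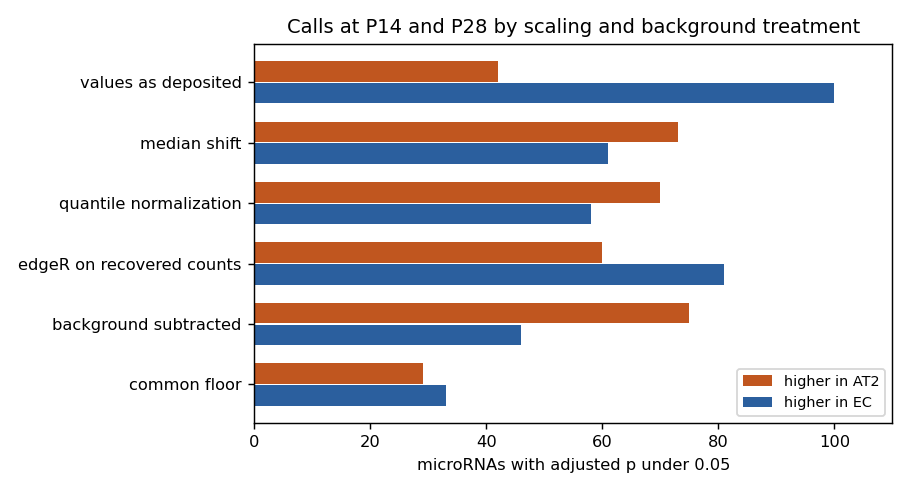
Number of microRNAs with adjusted p under 0.05 for AT2 minus EC at P14 and P28, higher in AT2 (orange) and higher in EC (blue), by scaling or background treatment. The deposited scaling gives 42 and 100, the median shift 73 and 61, and the common floor 29 and 33.

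Background bore mainly on the EC-high calls. Of the 100, all 4 EC samples were above background for 43, 1 to 3 for 28 and none for 29. Of the 42 AT2-high microRNAs, all 5 AT2 samples were above background for 41, and no EC sample for 3. Among the 160 microRNAs whose mean lay under the common floor in both cell types, 6 were AT2-high and 55 EC-high. Among the 98 with both means above it, the calls were nearly even, at 24 AT2-high and 22 EC-high.

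MIMAT0000138 had the largest EC-high difference. Its signal was 336 in AT2 P14 replicate 1, 8496 in AT2 P14 replicate 2, 1197 in AT2 P28 replicate 1, 1277 in AT2 P28 replicate 2 and 8542 in AT2 P28 replicate 3. In EC samples it was 187575 and 48398 at P14 and 196814 and 116628 at P28. The cell types did not overlap, and the AT2 samples themselves spread 25.4-fold. The log2 difference was -5.91 ± 0.74 (SE; limma adjusted p = 1.32e-05), and it was -5.81 at P14 and -6.01 at P28.

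MIMAT0000160 had the next largest difference in that direction and a far lower level. Its signal was 21.5 and 65.3 in the AT2 P14 samples and 29.7, 12.8 and 60.8 in the AT2 P28 samples, above background in 4 of the 5. In EC samples it was 2403 and 682 at P14 and 2601 and 1222 at P28. Again no AT2 sample reached an EC sample, and the lowest EC value was that of EC P14 replicate 2. The log2 difference was -5.48 ± 0.50 (SE; limma adjusted p = 4.50e-07). AT2 P14 replicate 2 and AT2 P28 replicate 3 were the highest AT2 samples for both EC-high microRNAs.

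On the AT2 side MIMAT0001542 was the first of the microRNAs above background in every AT2 sample. Its signal was 345 and 607 in the AT2 P14 samples and 290, 627 and 414 in the AT2 P28 samples. In EC samples it was 28.8 and 172 at P14 and 3.86 and 135 at P28, above background only in replicate 2 of each age. The groups did not overlap. The log2 difference was 3.36 ± 0.68 (SE; limma adjusted p = 0.000714), and with EC values held at their background limits the AT2 mean was at least 4.30-fold higher.

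MIMAT0000382 followed with a log2 difference of 2.93 ± 0.59 (SE; limma adjusted p = 0.000729), at least 5.35-fold by the same bound. Its signal was 247 and 556 in the AT2 P14 samples and 498, 1434 and 1066 in the AT2 P28 samples. In EC samples it was 20.6 and 143 at P14 and 34.7 and 308 at P28. The groups overlapped, since EC P28 replicate 2 lay above the lowest AT2 sample. As for MIMAT0001542, the EC samples above background were those numbered replicate 2.

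MIMAT0000381 had the largest fitted difference of the 42 but was below background in 1 AT2 sample. Its signal was 1.26, a single count, in AT2 P14 replicate 1, and 1592, 892, 2349 and 2180 in the other 4 AT2 samples. In all 4 EC samples it was at 1 count, between 1.03 and 3.86 signal units and the lowest value of each of those columns. AT2 P14 replicate 1 was thus at the level of the EC samples for this microRNA. That AT2 sample has the same specimen ID as EC P14 replicate 2, and the labels do not say what an ID shares. Over the 4 AT2 samples above background, the mean was at least 37.1-fold higher than the EC samples at their limits, and with the recorded 1.26 of AT2 P14 replicate 1 included the ratio was 8.84. The comparison of all 9 samples passed the threshold (limma adjusted p = 0.00015).

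**Figure D3:**
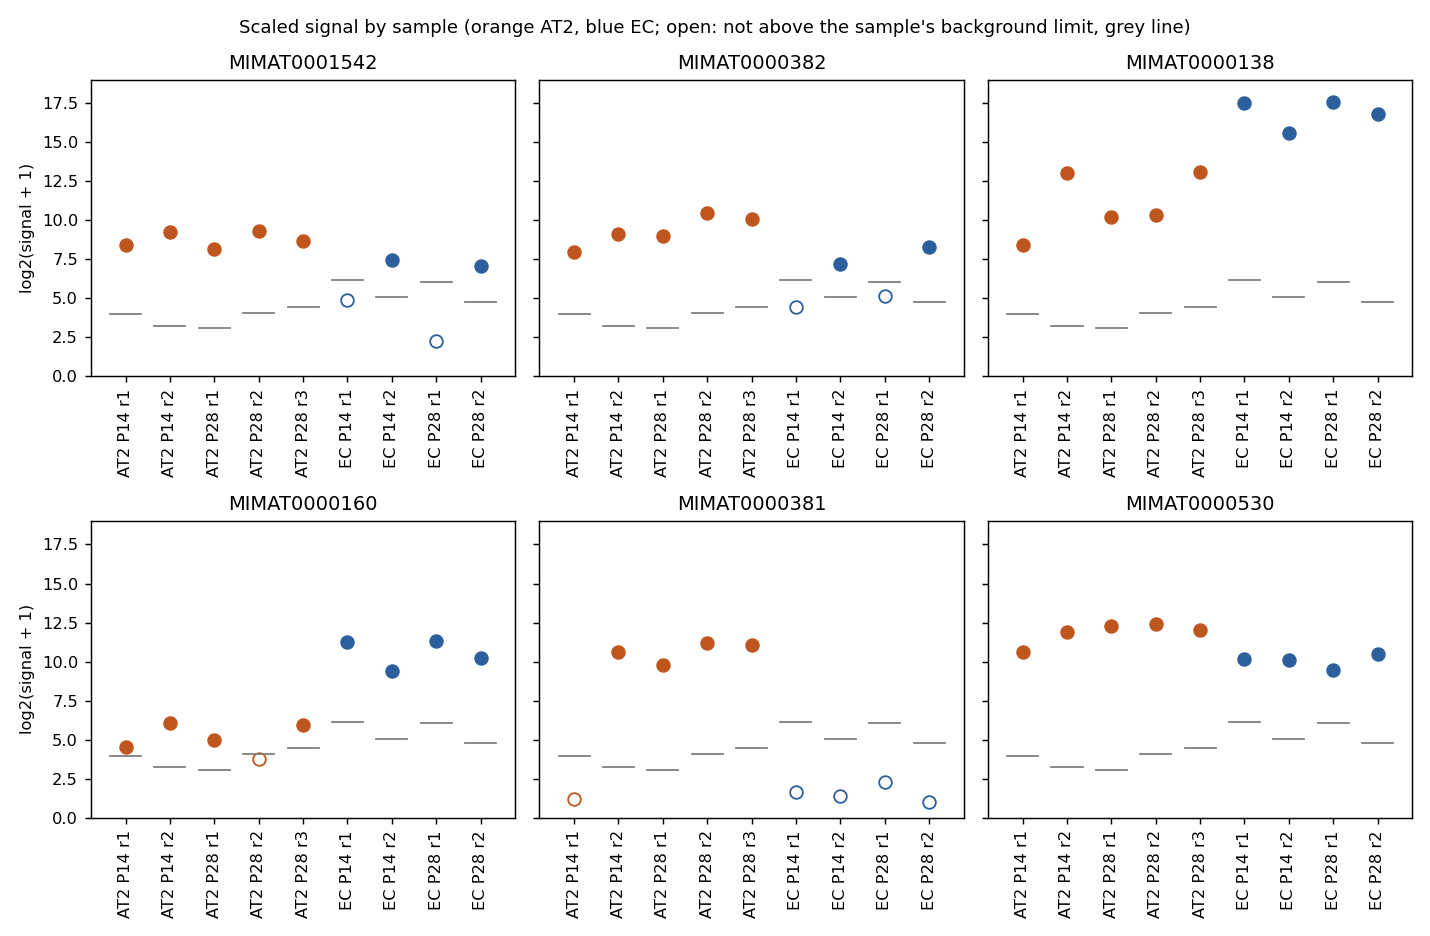
Scaled signal, as log2(signal + 1), of 6 microRNAs in each of the 9 samples; orange points are AT2, blue points EC, open points lie at or under the sample's background limit (grey line). MIMAT0000138 and MIMAT0000160 are higher in every EC sample, MIMAT0001542 and MIMAT0000530 in every AT2 sample, and MIMAT0000381 is at 1 count in AT2 P14 replicate 1 and in all 4 EC samples.

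Leaving out EC P14 replicate 1 lowered the count of 142 to 85 (26 higher in AT2, 59 in EC). Leaving out EC P28 replicate 1 lowered it to 90 (30 and 60). With all samples the split was 42 and 100. Low AT2-type signal and the highest background limits of the EC set, 69.7 and 65.1 signal units, coincide in those samples. Which of these traits bore on the drop was not tested. The count was 166 without EC P14 replicate 2 (47 higher in AT2, 119 in EC), of which 136 were among the 142. It was 171 with both replicate 2 EC samples left out (43 and 128), and 141 without AT2 P28 replicate 1, the shallow sample. MIMAT0000138, MIMAT0000160, MIMAT0001542 and MIMAT0000382 kept their direction and stayed past the threshold under all 21 alternatives, with the largest limma or edgeR adjusted p at 0.00931. The sizes moved more. With 1 sample left out, the log2 difference of MIMAT0001542 ran from 2.16 (without EC P28 replicate 1) to 4.56 (without EC P28 replicate 2), and that of MIMAT0000382 from 2.15 to 3.71 without the same samples. That of MIMAT0000138 ran from -7.07 (without AT2 P14 replicate 2) to -4.75 (without AT2 P14 replicate 1), and that of MIMAT0000160 from -5.93 to -5.03 (without EC P14 replicate 2 and without EC P14 replicate 1).

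Among the 9 samples, 3 specimen IDs in the sample titles were held by both an AT2 and an EC sample. Of the 142 microRNAs, 120 had the direction of the pooled difference in all 3 (38 AT2-high, 82 EC-high), against 51 of the 160 not past the threshold. These 6 samples are among the 9 that gave the 142, which favours that agreement, so it is a description. The median log2 difference of the AT2-high microRNAs was 1.98 in the first P28 specimen, 1.24 in the other P28 specimen and 0.68 in the P14 specimen, whose EC sample was EC P14 replicate 2. The medians of the EC-high microRNAs were -1.94, -1.18 and -1.14 in the same order.

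At P14 alone, 66 microRNAs differed (21.9% of 302), 8 higher in AT2 and 58 in EC cells, by limma. At P28, 88 did (29.1%), 33 and 55. With the median shift the splits were 27 and 30 at P14 and 49 and 45 at P28, with quantile normalization 8 and 15 and 53 and 48, and with background subtracted 8 and 12 and 51 and 41. At both ages 47 did, each in the same direction, which is 71.2% of the P14 calls and 53.4% of the P28 calls. All 142 microRNAs of the combined comparison had the same sign at both ages, against 115 of the other 160, a measure that the average of both ages favours.

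The P14 count rested on single samples. It was 3 without EC P14 replicate 1, 17 without AT2 P14 replicate 1, 32 without AT2 P14 replicate 2 and 111 without EC P14 replicate 2 (27 higher in AT2, 84 in EC). In a fit of the 9 samples alone it was 5, and with the prefix of the title ID as a covariate 15. Of the P14 samples only EC P14 replicate 1 has the prefix LMM.15, so that covariate and the difference between the EC P14 samples cannot be told apart. The P28 count was 37 without EC P28 replicate 1.

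No microRNA passed the threshold for a change of the cell type difference between P14 and P28 (0% of 302), by limma or by edgeR. At an unadjusted p under 0.05 there were 9 by limma, and 1 passed after adjustment without AT2 P14 replicate 2. The median SE of this change was 0.73 on the log2 scale, so changes of the median observed size, 0.49, were not detectable. Across microRNAs, which are not independent replicates, the P14 and P28 differences correlated with r = 0.87 and rho = 0.82.

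**Figure D4:**
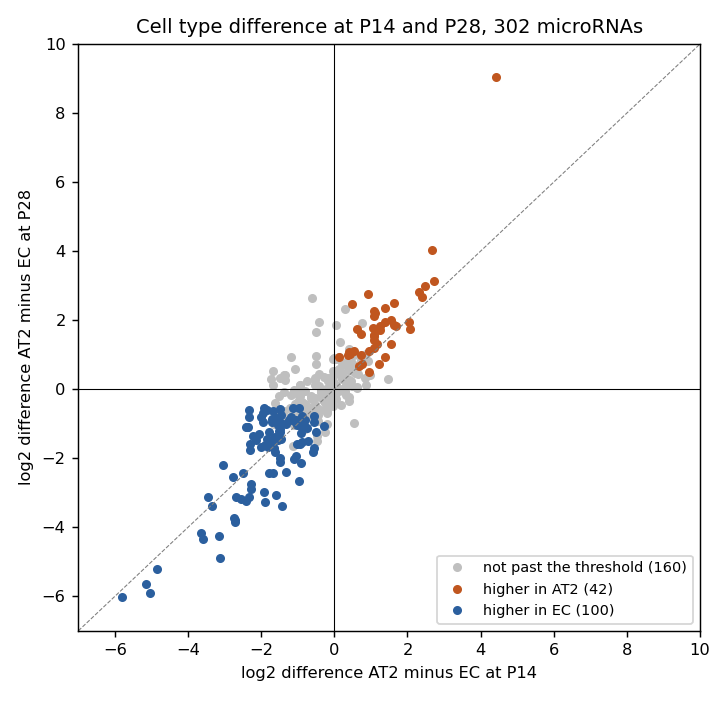
Log2 difference AT2 minus EC at P14 (horizontal) and at P28 (vertical) for the 302 microRNAs tested; orange and blue points are those past the threshold over both ages (42 and 100), and the dashed line marks equal differences. The points follow the line with r = 0.87.

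The difference between the cell types at P14 and P28 was set against that at E16.5 and E18.5 in 4 AT2 and 3 EC samples. The EC E18.5 group was 1 sample, with 36373 microRNA counts and a background limit of 95.1 signal units. That limit lies above the common floor, which was set on the 9 samples at P14 and P28. By limma, 21 microRNAs changed their difference (6.95% of 302), 8 toward AT2 and 13 toward EC. For 16 of the 21 the sign turned, but some of these signs come from values below background. The 21 were picked by their change, which favours a turned sign, and no matching count over the 302 is given here. MIMAT0003168 went from 4.91 to -0.16 and MIMAT0003742 from 1.39 to -1.29, with no sample above background at P14 and P28. MIMAT0000381 went from -1.34 to 6.73, with no embryonic sample above background. Of the 21, 12 also differed at P14 and P28 themselves, against 142 of all 302. Of the same 21, 10 were above background in all 9 samples of those ages and 3 in none. Of the 142 microRNAs of the late comparison, 125 had the same sign before birth. No matching share for the other 160 is given here. The median difference over the 302 leaned to EC in both periods, at -0.54 late and -0.50 before birth, which favours that agreement for EC-high microRNAs. Across the 302 the differences correlated with r = 0.69 and rho = 0.68.

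The count of 21 was 8 without EC P14 replicate 1 and 8 without EC P28 replicate 1. It was 41 with both replicate 2 EC samples left out, 71 at the common floor (38 toward AT2, 33 toward EC) and 12 with the median shift (7 and 5). Quantile normalization gave 15 in each direction. By edgeR it was 21 (4 and 17), of which 16 were shared with limma.

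MIMAT0003151 turned from EC-high to AT2-high. Its signal before birth was 68.3 and 95.0 at E16.5 and 90.9 and 104 at E18.5 in AT2 samples, and 849 and 916 at E16.5 and 412 at E18.5 in EC samples. At P14 and P28 it was 166 to 434 with a median of 349 in AT2 samples, and 61.8 to 211 with a median of 128 in EC samples. AT2 values were higher than before birth and EC values lower. The cell type difference moved by 4.07 ± 0.51 (log2, SE; limma adjusted p = 8.34e-05), from -2.75 to 1.32.

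MIMAT0000381 was above background in AT2 samples after birth alone, with AT2 P14 replicate 1 as the exception. It was at 1 to 2.48 signal units in the 4 embryonic AT2 samples, below background in each, at 1025 and 889 at P1 and at 1471 and 1397 at P7. EC samples were below background at every stage, from 1 to 7.93. The change against the embryonic stages was past the threshold by limma (adjusted p = 0.0121) and not by edgeR (adjusted p = 0.127). Its size, 8.07 on the log2 scale, was 10.43 without AT2 P14 replicate 1 and 5.70 without AT2 P14 replicate 2. Against the first postnatal week its change was not past the threshold (limma adjusted p = 0.665).

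MIMAT0003168 and MIMAT0003742 led the opposite direction, and both were above background in none of the 9 samples at P14 and P28. MIMAT0003168 was at 243 and 106 at E16.5 and 294 and 129 at E18.5 in AT2 samples, and between 1 and 7.43 in AT2 samples at P14 and P28. Its EC samples were at or under 7.93 at those ages and before birth. The AT2 excess of the embryonic samples had no counterpart above background at the later ages (limma adjusted p = 0.0244; edgeR adjusted p = 0.208). MIMAT0003742 was at 29.6 to 72.6 in embryonic AT2 samples and at 2.38 to 7.43 later (limma adjusted p = 0.0281). Its EC samples were below background before birth and at P14 and P28, at 4.11 to 31.7, and at the common floor its change was -0.01. Without EC P14 replicate 1 or without EC P28 replicate 1 neither call held, with adjusted p between 0.0519 and 0.0699, and without AT2 P14 replicate 2 that of MIMAT0003742 did not (0.053).

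**Figure D5:**
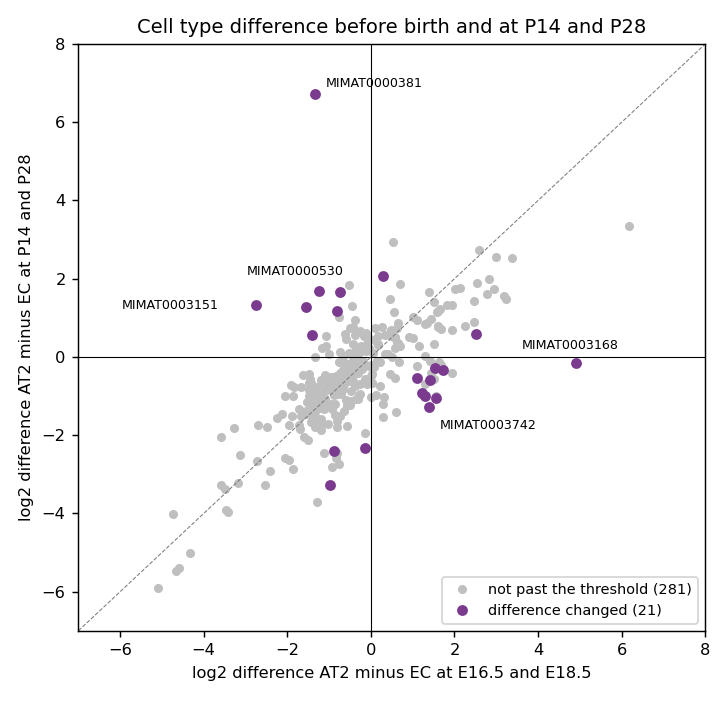
Log2 difference AT2 minus EC at E16.5 and E18.5 (horizontal) and at P14 and P28 (vertical) for the 302 microRNAs tested; purple points are the 21 whose difference changed. MIMAT0003151 moves from -2.75 to 1.32, and 16 of the 21 lie in the quadrants of opposite sign. Some of those signs come from values below background, and picking microRNAs by their change favours a turned sign.

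Against P1 and P7, with 4 AT2 and 3 EC samples, 1 microRNA changed its cell type difference (0.331% of 302; 35 at an unadjusted p under 0.05; 0 by edgeR). It was MIMAT0000530. Its AT2 signal was 228 in both E16.5 samples and 173 and 168 in the E18.5 samples, then 389 and 621 in the P1 samples and 1346 and 1519 in the P7 samples. At P14 it was 1573 and 3772 and at P28 4936, 5447 and 4242.

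The AT2 signal of MIMAT0000530 was thus higher at each later group mean from E18.5 onward. In EC samples it was 571 and 663 in the E16.5 samples, 357 in the E18.5 sample, 762 in the P1 sample, 1846 and 1564 at P7, 1163 and 1114 at P14 and 710 and 1448 at P28. Every AT2 sample at P14 and P28 lay above every EC sample of those ages, with a log2 difference of 1.68 ± 0.28 (SE; limma adjusted p = 0.000129). The change against the first week was 2.12 ± 0.42 (log2, SE; limma adjusted p = 0.0299). It was not past the threshold with the median shift, quantile normalization or edgeR (adjusted p between 0.067 and 0.12), nor without AT2 P28 replicate 1, AT2 P28 replicate 2 or EC P28 replicate 1 (0.0599 to 0.118).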

How the data were processed

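Per the labels' protocols, total RNA of sorted lung cells was read on NanoString's mouse microRNA code set, in which barcoded probes are counted without amplification. The build mm10 comes from the submitters' processing notes, which name no tool; how values were normalized is not given in the sources used here. In the deposited table a signal is counts times 1 factor per sample, as the values show. Of 13861 values, 100% came out whole within 0.1 count, after leaving out values that had been set to 1 in 9 columns. The ERCC control probes, 6 graded and 8 low (taken as negative controls), were not scaled. Columns and samples were assigned by the sample descriptions and by cell type and age in the labels.

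A microRNA was tested if above background in at least 2 of the 23 samples, which 302 of 602 were. limma 3.58.1 (R 4.3.3; lmFit and eBayes with trend) was fitted to log2(signal + 1) with 12 group means, Benjamini-Hochberg adjusted, two-sided. The count test was edgeR 4.0.16 on recovered counts, and exact permutation tests used scipy 1.17.1. The fits were tested on simulated data. Alternatives covered scaling, filter, pseudocount, background, samples, title prefix and specimen block. Replicate numbers follow accession order and pair nothing.

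Identifiers were named as the 2 with the largest difference in each direction among those past the threshold and above background in every sample of the higher side, plus the 2 of highest mean share in each cell type; the same rule, by group mean, served the changes between stages. The comparison, lists and tests were chosen with earlier results of these data known. The marker and family lists could not be matched to identifiers and gave no result. Precision is set by 1 to 3 samples per group and the counts per sample.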

Additional observations from a re-analysis of the deposited data

Results flagged for a closer look

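Of 38 sets of values tested for a gap, each a quantity in the 5 AT2 or the 4 EC samples, 6 had 1 sample far from the rest, and chance gives such a gap in about 1 set in 20. On the log2(signal + 1) scale MIMAT0000381 was at 1.18 in AT2 P14 replicate 1, far under the other 4 AT2 samples. MIMAT0003151 was at 7.38 in AT2 P14 replicate 2, the lowest AT2 sample. MIMAT0003168 was at 3.08 in AT2 P28 replicate 1, which is a single count times that sample's factor of 7.43, itself the highest of the AT2 samples by a wide gap. MIMAT0003484 was at 18.23 in AT2 P28 replicate 3, where the 10 most abundant microRNAs held 80.6% of counts.

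The cell type difference changed between stages for 21 microRNAs against E16.5 and E18.5 and for 1 against P1 and P7, by limma. In log2 units of AT2 minus EC, the change against the embryonic stages was 8.07 for MIMAT0000381 and 4.07 for MIMAT0003151. It was -5.07 for MIMAT0003168 and -2.67 for MIMAT0003742, both below background in all 9 samples at P14 and P28. Against the first postnatal week it was 2.12 for MIMAT0000530. The fitted values of MIMAT0000381, MIMAT0003168 and MIMAT0003742 rest on groups below background and are no bound on a fold.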

How the results depend on the processing

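The causes of the changes below were not tested. Without a filter on low values 300 microRNAs differed at P14 and P28 (42 higher in AT2, 258 in EC) and 174 at P14, in a fit that also tests all microRNAs near background. At the common floor the counts were 62 at both ages, 6 at P14, 49 at P28, 71 against the embryonic stages and 6 against the first week. The P14 count was 23 under quantile normalization, 34 for microRNAs above background in at least 4 of the 9 samples, 20 with background subtracted, 5 in the fit of the 9 samples alone (51 at P28) and 15 with the title prefix. The count against the embryonic stages was 12 with the median shift and 38 with pseudocount 10. That against the first week was 0 with the median shift, quantile normalization or edgeR, and 2 with pseudocount 10.

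Leaving out 1 sample gave 85 to 166 microRNAs at both ages (171 without both replicate 2 EC samples), 3 to 111 at P14 (116), 37 to 101 at P28, and 0 to 1 for the change from P14 to P28. It gave 8 to 29 against the embryonic stages (41) and 0 to 4 against the first week (2). The log2 difference of MIMAT0000121 reversed to 0.33 with the median shift, 1.18 with quantile normalization and 0.21 by edgeR, and ran from -0.38 to 0.14 with 1 sample left out.

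With the specimen ID as a replicate block, 47 AT2-high and 105 EC-high microRNAs were found at both ages (141 of the 142 among them) and 33 changed against the embryonic stages. Of 9 specimen IDs with both cell types, 7 could be checked, the other 2 lying in a group of 1 sample. Deviations correlated above 0.1 for 6 of the 7, from -0.02 to 0.31. For 6 of the 7 the sample of the same ID correlated best, a weak hint from the data toward pairing. The 7 checks are not independent, because deviations in groups of 2 samples mirror each other. Both P7 IDs thus gave 0.28 and both E16.5 IDs 0.27. Since 1 ID did not correlate above 0.1 and the labels do not say what an ID shares, the ID was not taken as paired. Over the microRNAs named and the 4 measures of composition, 238 of 260 alternatives kept direction and side of the threshold, 14 lost a call, 4 gained one and 4 reversed. Leaving out samples of the composition measures, and the bound of MIMAT0000381 over 4 AT2 samples, were chosen after seeing the data. Depth limits most the microRNAs under the common floor of 69.7 signal units, 160 of the 302, and AT2 P28 replicate 1 with 26640 counts. The 9-sample fit has no earlier stages, so it gave no value for the changes against them.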
